A study of Bos taurus with 8 samples.

Results

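Triglyceride synthesis and lipid droplet coat genes were followed in cattle embryos of 2 dairy breeds. The group was set by gene name and consists of GPAM, AGPAT1, AGPAT5, LPIN2, DGAT1, DGAT2, PLIN2, PLIN3, CIDEC and FITM2, matched to the gene symbol of each probe in the array annotation, with older synonyms counted. These 10 genes had 19 probes, of 15216 named genes and 43794 probes on the array. All 19 probes passed the filter on dim probes, which kept the 32129 probes brighter than the negative controls, in 1 breed or both, on 4 or more arrays. In 6 of the genes more than 1 probe was present, while AGPAT1, DGAT1, PLIN2 and PLIN3 had 1 each.

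RNA came from embryos of Holstein cows, labelled as having good cryotolerance, and of Jersey cows, labelled as performing poorly once frozen and thawed. In both breeds donors had follicles over 8 mm aspirated, were superovulated with 400 mg of FSH in all and 500 µg doses of a prostaglandin F2α analogue, were inseminated with pooled semen, and had their embryos flushed from the uterus on day 6. Each of 8 two-colour arrays carried both breeds, 4 with Holstein and 4 with Jersey in the red dye Cy5. Per the series' design text, each breed had 4 replicates and dyes were swapped. The number of embryos or donors behind a replicate is not given in the sources used here, so p-values measure the spread between these samples, which may be technical. The labels tie breed to post-freezing performance, so these cannot be told apart.

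Triglyceride is built on a glycerol backbone in the endoplasmic reticulum. GPAM adds the first fatty acid to glycerol-3-phosphate, AGPAT enzymes add the next, lipins remove the phosphate, and DGAT enzymes add the last fatty acid. The product collects between the membrane leaflets and buds into the cytoplasm as a droplet, a step helped by FITM2, while perilipins coat the surface and CIDEC enlarges droplets by fusing them. Cattle oocytes and early embryos are rich in such droplets, and a high lipid content has long been associated with poor survival of freezing.

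Over the 8 arrays the median spot intensity ranged between 171 and 265 for Cy5 and between 230 and 316 for Cy3. The array of pair 4 with Holstein in Cy5 stood apart, with 42.8% of probes above background in Cy3, against 69.4% to 80.8% on the others. The range of the group's ratios is therefore also given without pair 4. For the group, and for the probe shown of a named pathway gene, some means moved by over 1.5 times when any 1 pair was left out. Such a mean is also given without that pair. Means of cell type markers were not recomputed in this way. Markers of the inner cell mass (POU5F1, NANOG) and of trophectoderm (GATA3, KRT8, KRT18) exceeded background on 8 of 8 arrays in both breeds. CDX2 did so on 7 in Holstein and 8 in Jersey. PRDM14, DPPA3, GATA2, TFAP2A, TFAP2C, KRT19 and PTGS2 likewise exceeded background on 8 arrays in both breeds. The remaining measured markers of these lineages did so on fewer arrays. In Holstein and Jersey, SOX2 exceeded background on 6 and 6 arrays, SALL4 on 4 and 6, and KLF17 on 5 and 7. For LIN28B it was 5 and 5, for TEAD4 7 and 6, and for ELF5 6 and 4. The number of arrays limits the precision.

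No probe of the group had an adjusted p under 0.05. Arrays were averaged in 4 dye-swap pairs, each taken as 1 replicate and matched by their correlation, since the labels do not pair them. Log2(Holstein / Jersey), the mean of 4 dye-swap pairs, was above 0 for 7 of the 19 probes and below 0 for 12, with a median of -0.12 against 0.002 for all kept probes. The 3 probes of GPAM and 2 of the 4 probes of AGPAT5 had values higher in Holstein, the largest of them 0.52. Both probes of DGAT2 and the probe of PLIN2 had values higher in Jersey, down to -0.75. With limma on pair means and Benjamini-Hochberg adjustment over all kept probes, 0 of the 19 had an adjusted p under 0.05, as did 0% of the kept probes. The adjusted p of the 19 ran between 0.160 and 0.932. Without pair 4 the ratios ran between -0.98 and 0.63, 8 of them above 0, and the smallest adjusted p was 0.107.

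Without adjustment, 7 of the 19 had p under 0.05 in that limma fit. They were 5 probes higher in Holstein, where 6.61% of kept probes reached this level, and 2 probes higher in Jersey, where 7.34% did. The 5 are the GPAM probes and 2 of AGPAT5, and the 2 are those of DGAT2, so these 7 probes stand for 3 genes. Of the 5, GPAM EMBV3_07840 and EMBV3_16039 passed the filter on dim probes only through Holstein, where they were higher. They exceeded background on 6 and 7 arrays in Holstein, against 2 and 3 in Jersey. Their direction and p therefore rest in part on the filter and the background level. The same direction in all 4 pairs was seen for 10 of the 19, against 22.0% of kept probes. These 10 are the GPAM probes, 2 of AGPAT5, both of DGAT2, and 1 each of AGPAT1, LPIN2 and CIDEC. Several thus share a gene and its RNA, and the other probes of AGPAT5, LPIN2 and CIDEC had means of opposite sign. In a fit of the 8 single arrays with the pair as a random block, 1 probe of GPAM had an adjusted p under 0.05, while 3.77% of the probes fitted did. Levels of the breeds did not overlap for 1 probe, of CIDEC, against 5.52% of kept probes. With 4 pairs an exact sign-flip test of a single probe cannot go below 0.125.

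**Figure D1:**
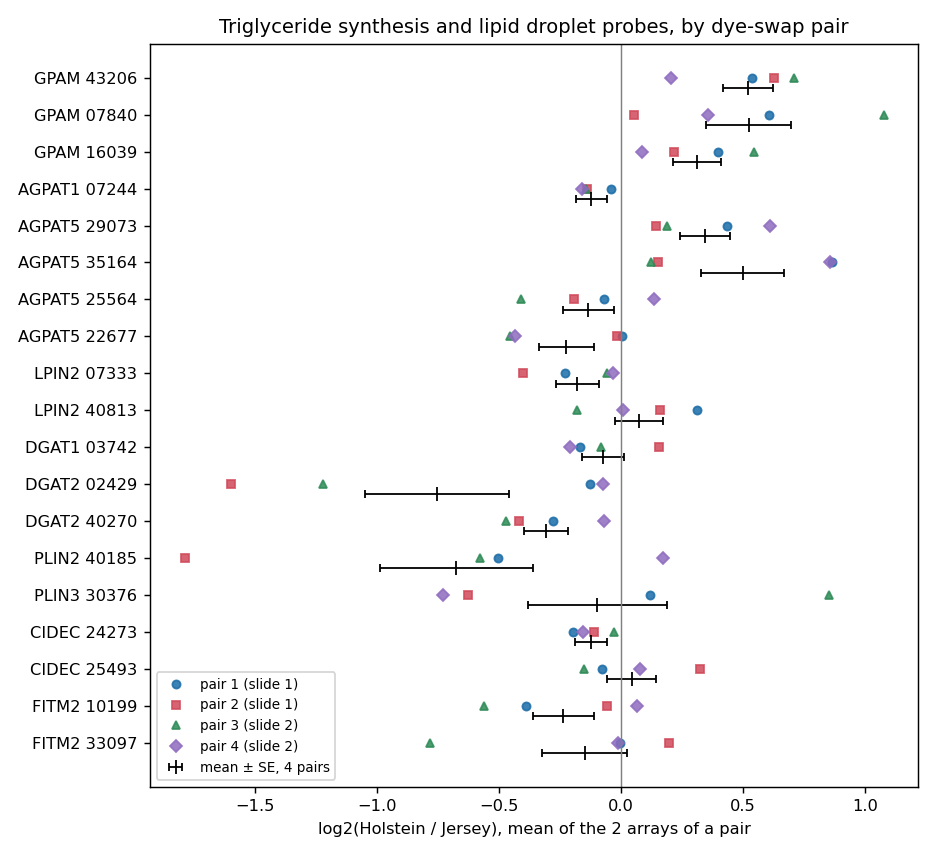
Log2(Holstein / Jersey) of the 19 probes on the horizontal axis, with 1 symbol for each of 4 dye-swap pairs and a bar for the mean ± SE below them. The GPAM probes lie to the right of 0 in every pair and both DGAT2 probes to the left, while PLIN2, PLIN3 and DGAT2 EMBV3_02429 are spread over the widest range.

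GPAM, the mitochondrial glycerol-3-phosphate acyltransferase that commits fatty acids to glycerolipid synthesis, lies on chromosome 26. Probe EMBV3_43206 had normalised log2 intensities of 8.21, 8.50, 8.32 and 7.84 in Holstein in pairs 1 to 4, against 7.68, 7.87, 7.61 and 7.63 in Jersey. Within each pair the Holstein level was the higher one, yet the groups overlapped, because Holstein in pair 4 lay below Jersey in pair 2. The log2 ratio was 0.52 ± 0.10 (SE, n = 4 pairs), or 1.43-fold, with an adjusted p of 0.160 on pair means and 0.0400 with the pair as a random block. Without pair 4 the ratio was 0.63. The signal was 1.39 to 2.29 times the mean of the negative control spots in Holstein, and 1.29 to 1.68 times in Jersey. With no background correction the ratio was 0.38.

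The other probes of GPAM were dimmer and pointed the same way. EMBV3_07840 had log2 ratios of 0.61, 0.05, 1.08 and 0.36 in pairs 1 to 4, with a mean of 0.52 ± 0.17 (adjusted p = 0.286, random block 0.0924). EMBV3_16039 had ratios of 0.40, 0.22, 0.55 and 0.09, with a mean of 0.31 ± 0.10 (adjusted p = 0.260, random block 0.126). The ratio of EMBV3_07840 was 0.34 without pair 3, which held its highest value. In Holstein EMBV3_07840 exceeded background on 6 arrays and EMBV3_16039 on 7, against 2 and 3 in Jersey, so their ratios are set in part by the background level. Both passed the filter on dim probes only through Holstein, so their shared direction is in part built in. Each GPAM probe was above 0 on 7 of the 8 single arrays. Probes of 1 gene share their RNA and are not separate replicates.

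The next step is carried out by the acylglycerolphosphate acyltransferases AGPAT1 and AGPAT5. AGPAT1, on chromosome 23, was dim, with Holstein and Jersey signal each above background on 6 of 8 arrays. Its ratios in pairs 1 to 4 were -0.04, -0.14, -0.14 and -0.16, with a mean of -0.12 ± 0.06 (adjusted p = 0.485). The 95% interval of that mean ran between -0.28 and 0.04.

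AGPAT5, on chromosome 27, gave values that depended on the probe. EMBV3_35164 had log2 levels of 11.76, 11.39, 11.57 and 12.04 in Holstein, against 10.90, 11.24, 11.45 and 11.18 in Jersey. Pairs 1 and 4 were wide apart and pairs 2 and 3 close together, and the breeds overlapped. The mean ratio was 0.50 ± 0.17, 1.41-fold, with an adjusted p of 0.296. EMBV3_29073 behaved alike, at 0.43, 0.14, 0.19 and 0.61, with a mean of 0.34 ± 0.10 (adjusted p = 0.244). Without pair 4 the means of these probes were 0.38 and 0.26. With the pair as a random block these probes had an adjusted p of 0.103 and 0.109.

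The remaining AGPAT5 probes lay on the other side of 0. EMBV3_25564 stood at -0.07, -0.19, -0.41 and 0.14 over the pairs, with a mean of -0.13 ± 0.10 (adjusted p = 0.668), and at -0.04 without pair 3 and -0.22 without pair 4. EMBV3_22677 stood at 0.01, -0.02, -0.45 and -0.43, with a mean of -0.22 ± 0.11 (adjusted p = 0.468), and -0.15 without pair 3 and likewise without pair 4. All 4 AGPAT5 probes exceeded background in both breeds on every array. Which part of the transcript each probe reads is not given in the sources used here, and why the probes part was not tested.

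LPIN2, a phosphatidate phosphatase of the lipin family on chromosome 24, had 2 probes of opposite sign. EMBV3_07333 had ratios of -0.23, -0.40, -0.06 and -0.03, with a mean of -0.18 ± 0.09 (adjusted p = 0.458), or -0.10 without pair 2. On its single arrays the ratio followed the dye: it ran between -0.76 and -0.27 with Holstein in Cy5, and between -0.03 and 0.43 with Jersey in Cy5. The pair mean averages this dye effect out. EMBV3_40813 stood at 0.31, 0.16, -0.18 and 0.01, with a mean of 0.08 ± 0.10 (adjusted p = 0.827). Without pairs 1, 2 and 3 in turn that mean was -0.004, 0.05 and 0.16.

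DGAT1 and DGAT2, unrelated enzymes that both add the last fatty acid of triglyceride, gave different values. DGAT1, on chromosome 14, had log2 levels of 7.81, 8.19, 7.79 and 7.87 in Holstein, against 7.98, 8.03, 7.87 and 8.08 in Jersey. The breeds overlapped, and the mean ratio of -0.07 ± 0.09 had a 95% interval of -0.29 to 0.14 (adjusted p = 0.797). Its value was -0.04 without pair 1, -0.15 without pair 2 and -0.03 without pair 4.

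DGAT2 is on chromosome 15. Its probe EMBV3_02429 had log2 levels of 10.01, 8.19, 9.18 and 9.72 in Holstein, against 10.14, 9.79, 10.40 and 9.79 in Jersey. Holstein was far lower in pairs 2 and 3 and close to Jersey in pairs 1 and 4, and the groups overlapped. The mean ratio was -0.75 ± 0.30 (SE, n = 4 pairs), 1.68-fold higher in Jersey, with an adjusted p of 0.358 on pair means and 0.116 with the pair as a random block. It was -0.47 without pair 2, -0.60 without pair 3 and -0.98 without pair 4.

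The second DGAT2 probe, EMBV3_40270, was closer to background and varied less. Its levels were 7.61, 7.29, 7.36 and 7.47 in Holstein, against 7.89, 7.70, 7.83 and 7.54 in Jersey. Jersey was the higher breed in each pair and the groups overlapped. The mean ratio was -0.31 ± 0.09, with an adjusted p of 0.242 and of 0.0938 with the random block, and -0.39 without pair 4.

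**Figure D2:**
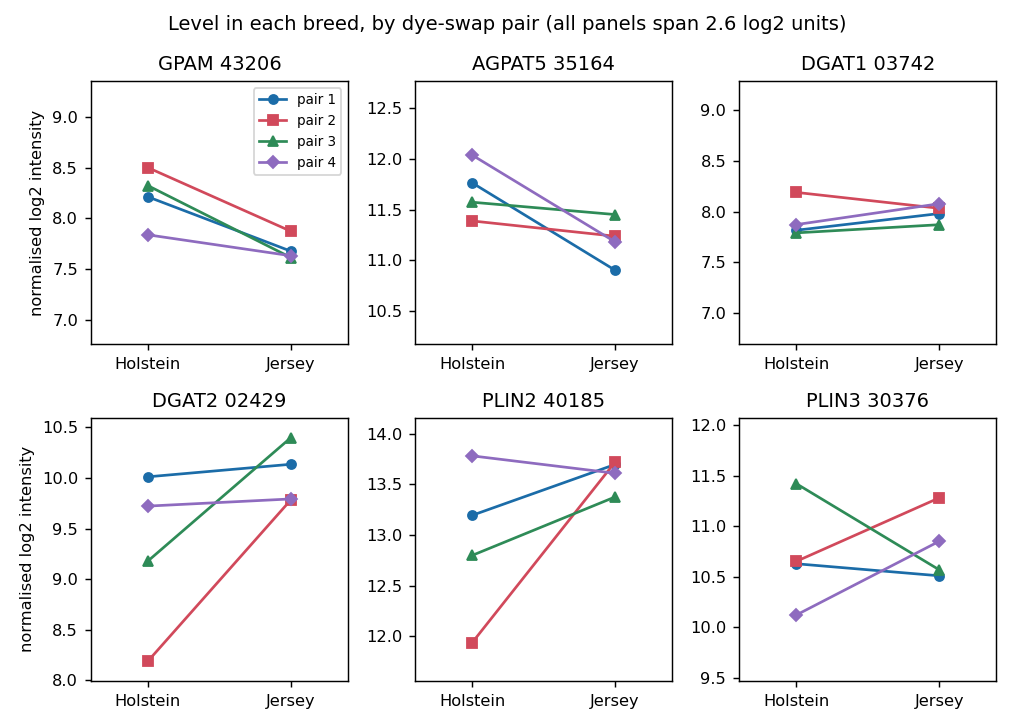
Normalised log2 intensity of 6 probes in Holstein (left in each panel) and Jersey (right), with a line for each of the 4 dye-swap pairs. The panels span equal ranges, and Holstein points of PLIN2 and DGAT2 EMBV3_02429 scatter with SDs of 0.78 and 0.80, against 0.16 and 0.30 for Jersey points.

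PLIN2, the perilipin found on droplets of most cell types, had its probe EMBV3_40185 on the array (chromosome 8). Its signal was 18.1 to 78.0 times the mean of the negative control spots in Holstein, and 47.7 to 70.3 times in Jersey. Log2 levels were 13.20, 11.94, 12.80 and 13.78 in Holstein, against 13.70, 13.72, 13.38 and 13.61 in Jersey. The 4 Jersey samples lay close together, while Holstein was lowest in pair 2 and above Jersey in pair 4, so that the groups overlapped.

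The mean log2 ratio of PLIN2 was -0.67 ± 0.31, 1.60-fold higher in Jersey, with a 95% interval of -1.46 to 0.12 and an adjusted p of 0.429. It rested on pair 2, where both arrays gave -1.79 and -1.78, and was -0.30 without that pair. Leaving out pair 4 moved it to -0.96. The arrays of each dye-swap pair gave like values, at -0.64 and -0.36 in pair 1, -0.69 and -0.46 in pair 3, and 0.05 and 0.30 in pair 4. Arrays were matched into pairs by the correlation of these data, so likeness within a pair is in part built in. Fewer cells with the transcript and less transcript per cell cannot be told apart in RNA of whole embryos.

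PLIN3, a perilipin that moves between the cytosol and young droplets, lies on chromosome 7. Its log2 levels were 10.63, 10.65, 11.42 and 10.12 in Holstein, against 10.51, 11.28, 10.57 and 10.85 in Jersey. Holstein was the higher breed in pairs 1 and 3 and Jersey in pairs 2 and 4. The ratios were 0.12, -0.63, 0.85 and -0.73, with a mean of -0.10 ± 0.28, a 95% interval of -0.81 to 0.62 and an adjusted p of 0.932. The 2 arrays of pair 3 gave 0.65 and 1.05, and those of pair 4 gave -0.74 and -0.72. Without pair 1 the mean was -0.17, without pair 2 it was 0.08, without pair 3 it was -0.41 and without pair 4 it was 0.11, and median centring in place of loess turned it to 0.02.

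**Figure D3:**
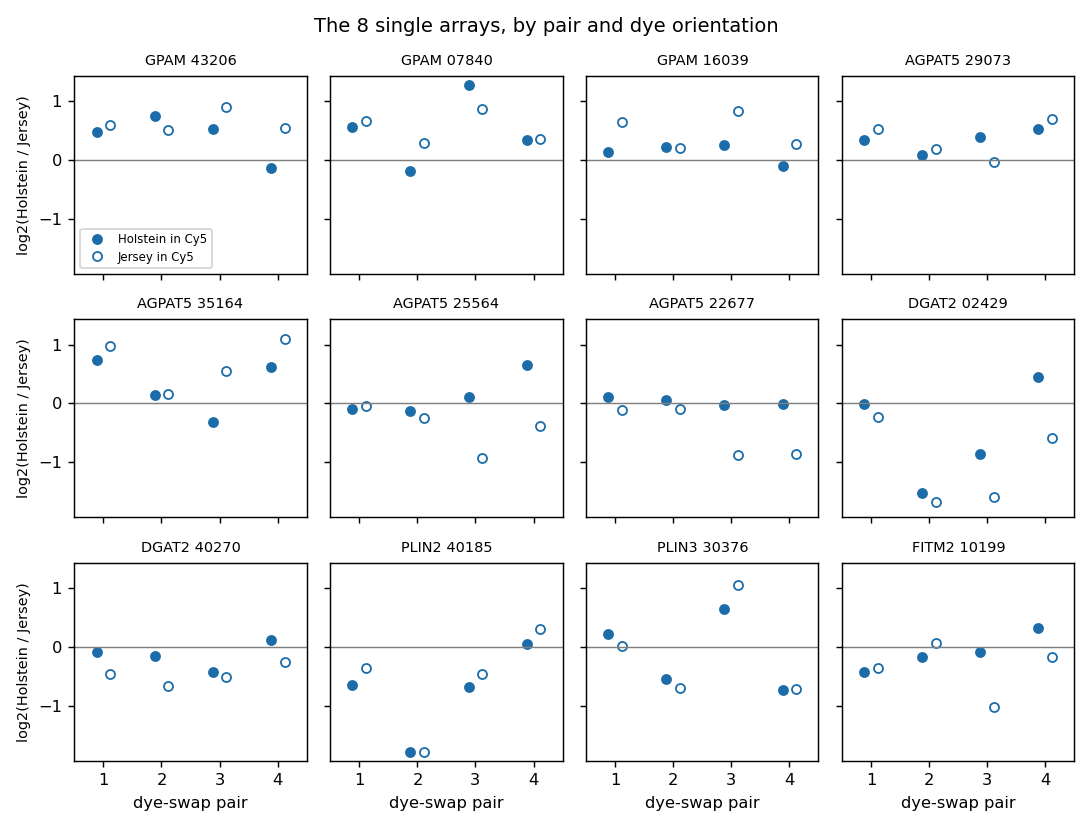
Log2(Holstein / Jersey) of 12 probes on the 8 single arrays, by dye-swap pair, with filled circles for Holstein in Cy5 and open circles for Jersey in Cy5. For PLIN2 and PLIN3 the circles of a pair lie close together and the pairs lie apart, though arrays were matched into pairs by their correlation. For AGPAT5 EMBV3_22677 the open circles of pairs 3 and 4 stand alone at -0.88 and -0.86.

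In Holstein the levels of PLIN2 and of DGAT2 EMBV3_02429 scattered more over the 4 pairs than in Jersey, with an SD of 0.78 against 0.16 and of 0.80 against 0.30. Over all kept probes the median SD was 0.17 in Holstein and 0.16 in Jersey. A Holstein SD exceeding the Jersey SD by 0.5 or more, a gap chosen after the values were seen, was found for 417 kept probes, 1.30% of them. Without the step that scales arrays to each other the SDs were 0.78 against 0.15 for PLIN2 and 0.82 against 0.30 for DGAT2 EMBV3_02429. The other DGAT2 probe, EMBV3_40270, had an SD of 0.14 in Holstein and 0.16 in Jersey, and of 0.26 and 0.08 without that step. The difference in spread between breeds was not tested.

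CIDEC, which fuses droplets in fat-storing cells, lies on chromosome 22. Probe EMBV3_24273 had log2 levels of 7.43, 7.51, 7.57 and 7.57 in Holstein, against 7.62, 7.62, 7.60 and 7.72 in Jersey. Every Jersey value lay above every Holstein value, although by little. The ratio was -0.12 ± 0.07 with an adjusted p of 0.494, and on single arrays it was below 0 on 6 of 8. The second CIDEC probe, EMBV3_25493, exceeded background on 4 of 8 arrays in Holstein and on 3 in Jersey, and its ratio was 0.04 ± 0.10 (adjusted p = 0.908). That ratio was 0.09 without pair 1, -0.05 without pair 2 and 0.11 without pair 3.

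FITM2, which binds newly made triglyceride and is needed for droplets to bud, lies on chromosome 13. Probe EMBV3_10199 had ratios of -0.39, -0.06, -0.56 and 0.07 in pairs 1 to 4, with a mean of -0.24 ± 0.12 (adjusted p = 0.490). That mean was -0.13 without pair 3 and -0.34 without pair 4. EMBV3_33097 was at background on 4 of 8 arrays in either breed and had a mean of -0.15 ± 0.17 (adjusted p = 0.800). Its lowest value was that of pair 3, at -0.78, and the mean was 0.06 without pair 3 and -0.26 without pair 2.

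Slides 1 and 2 each carried 2 pairs and both breeds. With slide as a term the smallest adjusted p of the group's breed effect was 0.233. When the breed effect of slide 2 was set against that of slide 1, 0 of the 19 probes had an adjusted p under 0.05 in limma, as did 0% of kept probes, and the smallest adjusted p of the 19 was 0.99995. Without adjustment 1 of the 19 had p under 0.05, against 4.08% of kept probes. It was AGPAT5 EMBV3_22677, with means of -0.005 on slide 1 and -0.44 on slide 2, and its low values came from the arrays with Jersey in Cy5. PLIN2 averaged -1.14 on slide 1 and -0.20 on slide 2.

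The other genes of the pathway went both ways, with list medians near 0. Among 22 other measured genes of glycerolipid synthesis the log2 ratio was above 0 for 11 and below 0 for 11, with a median of 0.01. For 30 other droplet coat and droplet assembly genes it was above 0 for 12 and below 0 for 18, and the median was -0.04. Among 11 lipolysis genes, which break triglyceride down, the split was 6 above and 5 below, with a median of 0.02. For 18 regulators of lipid genes it was 6 above and 12 below, with a median of -0.08. In limma on pair means 0 genes of these lists passed the adjusted threshold, and 10 had an unadjusted p under 0.05, 4 higher in Holstein and 6 in Jersey, where 6.61% and 7.34% of kept probes reached that level.

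**Figure D4:**
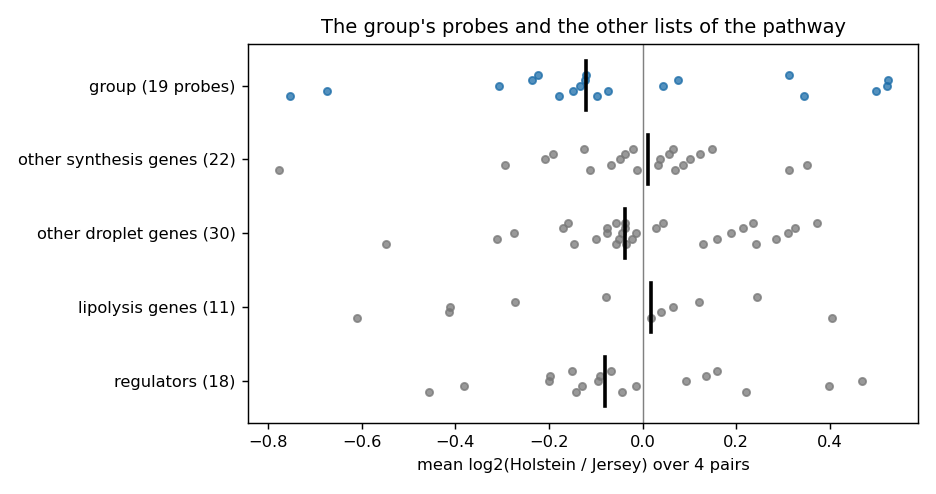
Mean log2(Holstein / Jersey) over 4 pairs of the 19 probes (top) and of the genes in 4 lists of the pathway, 1 probe a gene, with a bar at the median of each. Values of the 19 probes range between -0.75 and 0.52, and the medians lie between -0.12 and 0.02.

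In the synthesis list, glycerol kinase GK, which makes glycerol-3-phosphate from glycerol, had ratios of -0.71, -0.94, -1.39 and -0.07, with a mean of -0.78 ± 0.22. Its adjusted p was 0.228 on pair means and 0.0361 with the pair as a random block. GK is X-linked, and XIST, the RNA of the inactive X chromosome, stood at -2.93 ± 0.35 (adjusted p = 0.0885). No gene of the group is X-linked. The part of the X chromosome in the values of GK or of the group was not tested. GPD1L, related to the enzyme that makes glycerol-3-phosphate from a sugar intermediate, stood at -0.29 ± 0.08 (adjusted p = 0.226). TMEM68, an acyltransferase that can make triglyceride without the DGAT enzymes in human cells, stood at 0.35 ± 0.15, or 0.19 without pair 2, with its second probe at -0.06.

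Among droplet genes, LDAF1, the partner of seipin where droplets assemble, had ratios of -0.55, -0.85, -0.67 and -0.12, with a mean of -0.55 ± 0.13. Its adjusted p was 0.197 on pair means and 0.0428 with the random block, and its second probe stood at 0.06. FAF2, a docking protein for protein-extraction machinery on droplets, was at 0.37 ± 0.13 (0.23 without pair 2). CCDC47, of the endoplasmic reticulum membrane, was at 0.31 ± 0.12. The coat proteins PLIN1 and PLIN5, with CIDEA and seipin (BSCL2), were too dim to be kept.

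For lipolysis, lysosomal acid lipase LIPA stood at 0.24 ± 0.07 and the phospholipase DDHD1 at -0.41 ± 0.12, 1 of 4 probes whose values ran up to 0.03. DDHD2, a triglyceride lipase known from mouse brain, stood at -0.27 ± 0.12, while its 3 probes ran between -0.27 and 0.34. Among regulators, SCAP, the escort of the sterol-regulated SREBP factors, stood at -0.46 ± 0.11, with an adjusted p of 0.193 on pair means and 0.0320 with the random block. CNEP1R1, a subunit of the phosphatase that acts on lipins, was at 0.22 ± 0.08. The oxysterol receptor NR1H2 was at -0.38 ± 0.15 (-0.23 without pair 1).

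The ratios of PLIN2, PLIN3 and DGAT2 EMBV3_02429 spread over the 4 pairs by SDs of 0.81, 0.74 and 0.77, above the 90th percentile of kept probes, which was 0.51. A cut at this percentile was chosen after the values were seen. Of the other lists, 3 of 22 synthesis, 4 of 30 droplet, 4 of 11 lipolysis and 3 of 18 regulator genes also lay above it. PNPLA3, a droplet lipase, had -2.16 in pair 2, and 0.13, 0.10 and -0.51 in the others. Its mean was -0.61, or -0.09 without pair 2, and its second probe had a mean of -0.11. PLIN2 and DGAT2 EMBV3_02429 also had their lowest values in pair 2, while DGAT2 EMBV3_40270 was lowest in pair 3, at -0.47. The main triglyceride lipase PNPLA2 had -0.62, 0.99, 0.36 and -0.25, and its activator ABHD5 had -0.20, 1.04, 1.17 and -0.39.

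Of the lineage markers, 3 of 8 inner cell mass, 3 of 11 trophectoderm and 2 of 7 primitive endoderm genes lay above it, and markers of 1 lineage differed among themselves. In the inner cell mass NANOG had ratios of 1.97, -1.58, 2.12 and -0.92, while DPPA3 had 0.27, -1.08, -0.25 and 0.02 and PRDM14 had 0.07, -0.76, -0.49 and 0.47. These 3, named for their wide spread, were lowest in pair 2, as PLIN2 and DGAT2 EMBV3_02429 were. The rest of the list was split. KLF17 and LIN28B were also lowest in pair 2, while SOX2 was lowest in pair 1 and SALL4 in pair 3. POU5F1 was highest in pair 2, at 0.23, against -0.64, -0.60 and 0.09 in pairs 1, 3 and 4. In trophectoderm TFAP2A had 1.57, 3.02, 1.95 and -2.56, whereas KRT18 had -0.67, -0.58, 0.23 and -0.74. In primitive endoderm PDGFRA had 0.68, 1.06, 0.73 and 0.60, GATA4 had 0.47, 0.35, 0.38 and 0.82, and SPARC had -1.11, -0.78, -2.21 and -0.21. On pair means 0 of these 7 passed the adjusted threshold, and 3 did with the pair as a random block, where 3.77% of the probes fitted did. Summed marker levels ran between 13.6 and 14.4 in Holstein and between 13.8 and 14.3 in Jersey for 8 inner cell mass genes, and between 16.5 and 17.0 in Holstein and between 16.7 and 16.9 in Jersey for 11 trophectoderm genes. For 7 primitive endoderm genes they were 15.7 to 15.8 in Holstein and 15.6 to 15.8 in Jersey. Each sum adds intensities before log2 is taken, so the brightest genes of a list set most of it. Dimmer genes such as SPARC, LAMA1 and TFAP2A count little, and like sums do not show like amounts of a lineage. The part of these lineages in the values of GPAM, PLIN2, PLIN3 and DGAT2 was not tested.

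**Figure D5:**
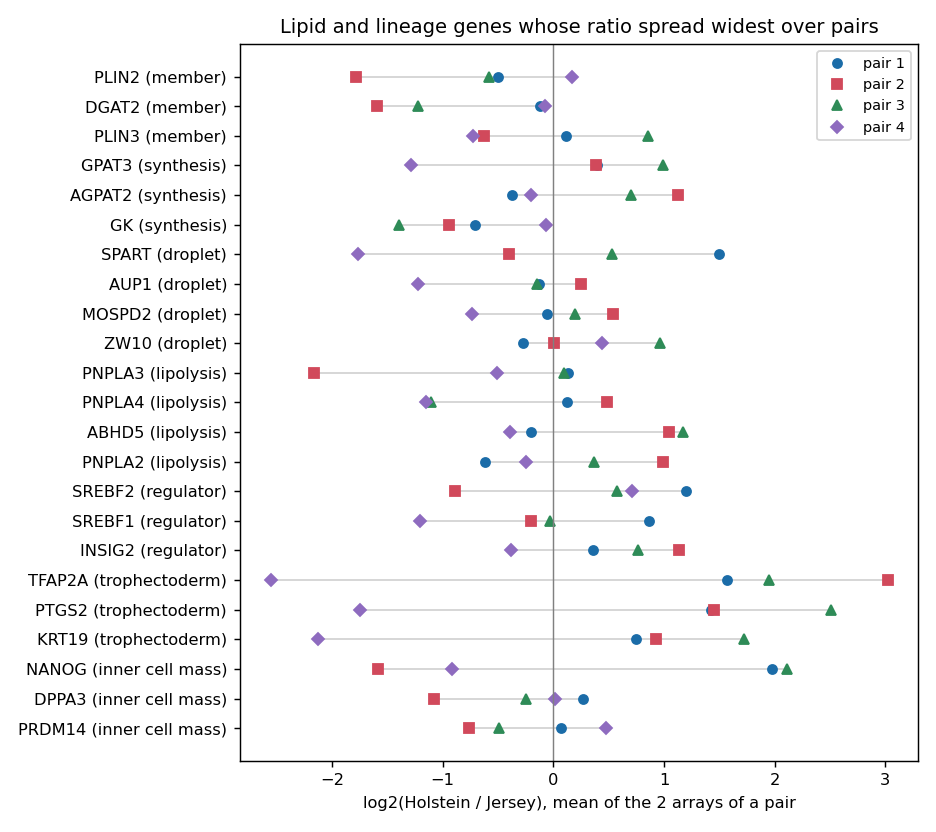
Log2(Holstein / Jersey) in each dye-swap pair for the lipid genes and the inner cell mass and trophectoderm markers whose SD over pairs lies above the 90th percentile of kept probes. Pair 2 is lowest for PLIN2, DGAT2 EMBV3_02429, PNPLA3 and SREBF2, and for the inner cell mass markers. Pair 4 is lowest for PLIN3, GPAT3, SPART, AUP1, MOSPD2, PNPLA4, ABHD5, SREBF1 and INSIG2, and for TFAP2A, PTGS2 and KRT19. The other lipid genes are lowest in pair 1 or pair 3.

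Markers of other cells that a flushing could carry were looked at beside these genes. Their sums, too, are set mostly by the brightest genes of each list. For 6 fat cell genes the summed level was 9.83 to 9.91 in Holstein and 9.75 to 9.90 in Jersey, and the fat cell coat protein PLIN1 was too dim to be kept. For 6 leukocyte genes it was 10.2 to 10.9 in Holstein and 10.7 to 11.2 in Jersey, and for 6 cumulus and granulosa genes 10.7 to 11.0 in Holstein and 10.3 to 10.9 in Jersey. Uterine epithelium genes, 4 in number, summed to 9.19 to 9.60 in Holstein and 9.29 to 9.34 in Jersey. Only for 8 red cell genes did the breeds not overlap, at 10.8 to 11.0 in Holstein and 11.2 to 12.6 in Jersey. The globin HBG stood at -4.22 and -3.84 in pairs 1 and 2, and at 0.13 and 0.16 in pairs 3 and 4. In pairs 3 and 4 ALAS2 stood at -1.66 and -0.95. Of the 8 red cell genes 6 had a mean below 0, and AHSP and SLC4A1 had means of 0.18 and 0.04. In limma 0 markers of these lists passed the adjusted threshold. An unadjusted p under 0.05 was reached by 2 cumulus and granulosa genes, CYP19A1 at 0.54 and INHBA at 0.79, and by 1 red cell gene and 1 leukocyte gene, both higher in Jersey. Over all kept probes 6.61% reached that level higher in Holstein and 7.34% higher in Jersey. The part of these cells in the values of PLIN2, DGAT2 and GPAM was not tested.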

How the data were processed

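Per the labels' protocols, total RNA was isolated with the PicoPure method, copied in 2 rounds of T7 amplification, coupled to Cy3 or Cy5 with ULS reagents and hybridised to Agilent slides. The deposited scanner files hold raw intensity of each spot and its local background in both dyes, and a further deposited column of the kind other that marks ignored spots (131 in all). The deposited value table holds log2 ratios whose making is not given in the sources used here. On each of the 8 arrays it ran opposite to the scanner files' Holstein over Jersey ratio (r between -0.988 and -0.978), hence as Jersey over Holstein, and was an alternative only; its column medians were -0.0364 to 0.0251. No per-sample column was left unassigned (0).

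Spot means were background-corrected by normexp (offset 50) and normalised by loess within arrays, using limma 3.58.1 in R 4.3.3. A probe was kept when above the mean plus 2 SD of 153 negative controls for either breed on at least 4 arrays. The labels do not pair arrays, so of 24 matchings of opposite dye orientation the one with the highest residual correlations was used (0.46 to 0.71 within pairs, -0.36 to -0.02 otherwise), each pair being 1 replicate. For each probe the 4 pair means of log2(Holstein / Jersey) entered lmFit and eBayes against 0, with Benjamini-Hochberg adjustment and a threshold of 0.05. The alternative with the pair as a random block had a consensus correlation of 0.31. Levels were taken after Aquantile scaling between arrays. In the lists each gene is shown by its brightest kept probe. The fits were also run on simulated data. The changes set there were larger than any mean ratio of the group, and variances were more alike between probes. That run therefore does not show how the fits treat changes as small as those of the group.

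The genes of the group, the lists and the tests were chosen with earlier results of these data known. All probes of the 10 genes are named, and of each pathway list the 3 genes of smallest p and any past the threshold; other genes were named after their values were seen. Gene names were updated, and chromosomes taken, from RefSeq's annotation of ARS-UCD2.0, which matched 20025 of 21790 named probes by symbol and 1524 by synonym. No coordinates are given, since the build of the array is not given in the sources used here.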

Additional observations from a re-analysis of the deposited data

Results flagged for a closer look

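In 57 sets of 4 values, the ratios and the levels of either breed for the 19 probes, 2 held a sample far from the other 3, where chance sets 1 apart in about 20. AGPAT1 EMBV3_07244 had a ratio of -0.0413 in pair 1, and -0.14 to -0.16 in the other pairs. FITM2 EMBV3_33097 had a Jersey level of 7.93 in pair 3, against 7.08 to 7.12 in the other pairs, though this probe exceeded background in Jersey on only 4 of 8 arrays.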

How the results depend on the processing

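Against 0 probes past the adjusted threshold on pair means, keeping only the 14019 probes above background in both channels left 48 (5 higher in Holstein, 43 in Jersey), the pair as a random replicate block gave 1209, no replicate block gave 2054, and leaving out each pair gave 0 to 2, the 2 without pair 4. For the group's probes these counts were 1 with the block (GPAM EMBV3_43206, adjusted p = 0.0400) and 2 with no block (adding DGAT2 EMBV3_40270, 0.0499). For the pathway lists they were 3 and 5. With no block the arrays of a pair count as separate replicates, although each pair was taken as 1, which overstates the evidence. The fit with the block used 1 consensus correlation, 0.31, for all probes. The count of the group was 0 under every other setting, and 0 without any 1 pair. Directions turned when a pair was left out for LPIN2 EMBV3_40813 (range -0.00366 to 0.160, lowest without pair 1), PLIN3 (-0.413 to 0.115, above 0 without pair 2 or 4), CIDEC EMBV3_25493 (-0.0494 to 0.110, below 0 without pair 2) and FITM2 EMBV3_33097 (-0.264 to 0.0625, above 0 without pair 3). They also turned for PLIN3 with median centring (0.0170) and for DDHD2 by its probe of smallest p (0.345). The cause was not tested. On a single slide of 2 pairs, with no test, the mean was -0.09 for LPIN2 EMBV3_40813, 0.06 for PLIN3 and -0.04 for CIDEC EMBV3_25493 on slide 2, and 0.10 for FITM2 EMBV3_33097 on slide 1. All other probes of the group, and the other pathway genes named for their small p, kept their direction under the alternatives run. PNPLA2, at 0.12 over 4 pairs, ranged between -0.17 and 0.37 when a pair was left out; the lineage and other marker genes were not recomputed under alternatives. The median of the group was -0.12, and -0.15 to -0.07 over the settings that used both slides. Of the 19 probes, 11 exceeded background in both breeds on all arrays, and ratios of the other 8 depend on the background. Some of the 11 were also close to it. With no background correction GPAM EMBV3_43206 moved from 0.52 to 0.38, and AGPAT5 EMBV3_22677 from -0.22 to -0.14. CIDEC EMBV3_24273 moved from -0.12 to -0.07, while the bright PLIN2 stayed at -0.67.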
